A study of Homo sapiens with 12 samples.

Results

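The response to BRD9 degradation was examined in G401 cells without SMARCB1, by comparing 3 RNA sequencing libraries of GFP cells given dBRD9-A with 3 libraries of GFP cells given DMSO. These were 6 of the 12 libraries of the series, chosen by their labels alone. G401 is an established human cell line from a malignant rhabdoid tumour of the kidney, and its genotype was labelled SMARCB1(-/-). All cells carried a doxycycline-inducible construct. The 6 libraries described here came from cells induced to make GFP, a control protein with no role in chromatin, and then exposed for 24 hours to DMSO, the solvent, or to dBRD9-A, a compound that has BRD9 protein degraded by the cell. The other 6 libraries came from G401 cells induced to make SMARCB1 and given the same treatments, 3 libraries each, and are used here for comparison. All groups thus shared the G401 background and the induction, and G401 is a single line, so nothing here extends to other rhabdoid lines. Nothing in the labels says that the 3 libraries of a group came from separate cultures, so p-values measure the spread between these libraries, which may be technical.

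SMARCB1 is a core subunit of the canonical BAF and the PBAF forms of the SWI/SNF chromatin remodelling complex, which move nucleosomes at enhancers and promoters. BRD9 is a bromodomain protein that marks another form, non-canonical BAF or ncBAF, which is assembled without SMARCB1 and holds BICRA or its paralogue BICRAL instead of the ARID subunits. Rhabdoid tumours arise through the loss of SMARCB1, and their cells are known to depend on ncBAF, which is why the loss of BRD9 is studied in them.

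The counts went with the SMARCB1(-/-) label in the GFP libraries, while the dBRD9-A label could not be checked on mRNA. SMARCB1 (ENSG00000099956.13) stayed at 0 to 2 counts in each of the 6 GFP libraries, under a floor of 3 counts. BRD9 mRNA was at 39.6, 37.2 and 38.0 CPM (counts per megacount of the library) in DMSO and 41.3, 40.2 and 41.9 CPM with dBRD9-A, a difference that did not pass the test (log2 fold change 0.10 with SE 0.05 and adjusted p = 0.146). Since dBRD9-A removes protein and not mRNA, and no protein was measured, this does not test whether BRD9 was lost. CRBN, the substrate receptor of the ubiquitin ligase that many degraders recruit, was at 31.1, 29.7 and 32.2 CPM in DMSO and 30.6, 31.8 and 32.4 CPM with dBRD9-A, and its groups overlapped. Rhabdoid line markers (VIM, KRT8, KRT18, SALL4, GPC3 and MUC1) summed to 6349 to 6777 CPM in DMSO and 6432 to 6563 CPM with dBRD9-A, and MUC1 alone among them was too low to be tested. Of 19 markers of other cell types, 14 were at or under the floor in all 6 libraries. The 19 summed to 215 to 223 CPM in DMSO and 168 to 173 CPM with dBRD9-A, nearly all of it from MBP, which is known from myelin but is also transcribed outside it. MBP had 214, 220.2 and 222 CPM in DMSO and 168, 173 and 167 CPM with dBRD9-A (log2 fold change -0.37 with SE 0.03 and adjusted p = 3.23e-08). In bulk RNA, fewer cells of a type and less RNA per cell cannot be told apart.

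Depth was 40.8 to 58.5 megacounts per library in DMSO and 34.97 to 42.1 with dBRD9-A. In a principal component analysis of the 6 libraries, the first component (35.5% of the variance) separated the treatments, and the second (20.2%) set dBRD9-A replicates 2 and 3 apart. ERCC spike-in RNAs, synthetic transcripts added from outside, made up 1.26% to 1.302% of each DMSO library and 0.963% to 1.06% of each dBRD9-A library. Over all genes the median log2 fold change was -0.00046, and 0.36 after scaling to the spike-ins. Whether the spike-ins were matched to cells or to RNA mass was not stated, so every "higher" and "lower" below is relative to the bulk of genes, and the counts of each list under spike-in scaling stand beside it.

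Across 15750 genes, dBRD9-A changed 2504 (15.9%) at an adjusted p under 0.05 in the quasi-likelihood test of edgeR, 1170 higher (7.43%) and 1334 lower (8.47%). Spike-in scaling gave 11083 higher and 227 lower genes. The share called went from 4.22% in the fifth of genes with the lowest level to 24.0% in the fifth with the highest. Most changes were small, with a median log2 fold change of 0.20 among the higher and -0.23 among the lower genes. The larger the change, the more it was a fall: 315 genes fell and 139 rose by at least 0.5 on the log2 scale, 116 fell and 27 rose by at least 1, and 30 fell and 3 rose by at least 2. The 3 libraries of one group did not overlap with those of the other in 5352 of the genes tested (34.0%), the background for each statement below that groups did not overlap.

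**Figure D1:**
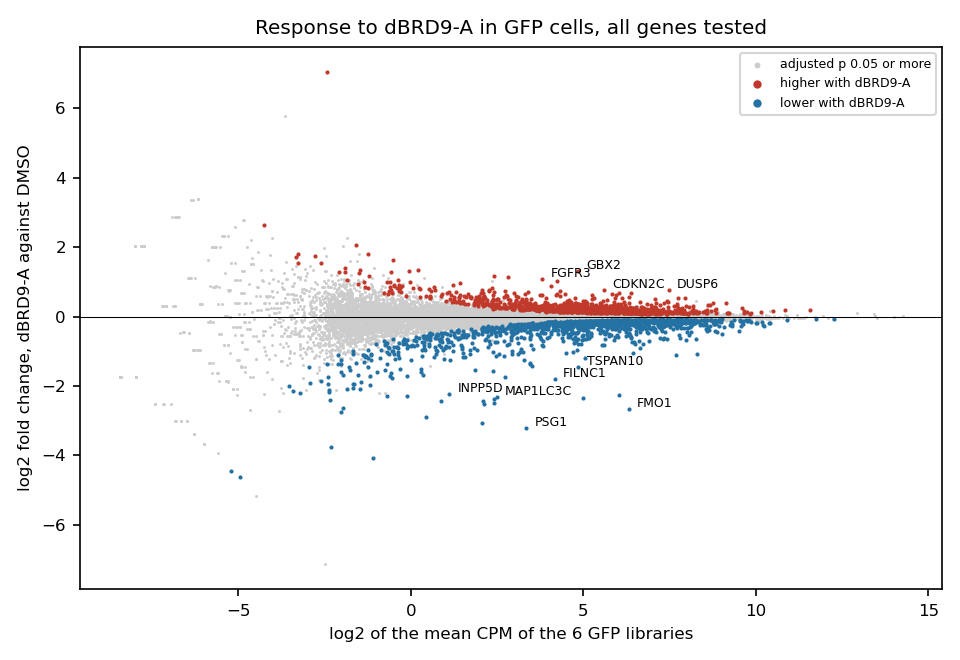
Log2 fold change between dBRD9-A and DMSO in GFP cells (vertical axis) against the log2 of the mean CPM of the 6 GFP libraries (horizontal axis), one point per gene. Red points are higher and blue points lower at an adjusted p under 0.05, grey points did not pass, 56 genes at 0 in all 6 libraries are not drawn, and the blue points reach further from 0 than the red ones among well-counted genes.

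Among genes averaging 100 or more counts, the 2 deepest falls were PSG1 and PSG2 of the pregnancy-specific glycoproteins, or PSGs, a cluster of near-identical genes on chromosome 19 whose secreted products are made by the placenta and bind integrins and growth factors. All 10 members tested were lower, with a median log2 fold change of -2.41, and spike-in scaling gave 0 higher and 10 lower. PSG9, the member with the most counts, had 108, 106 and 111 CPM in DMSO and 22.8, 22.4 and 23.5 CPM with dBRD9-A (log2 fold change -2.25 with SE 0.05 and adjusted p = 1.75e-15). PSG5 had 53.7, 51.9 and 53.9 CPM in DMSO and 10.3, 10.4 and 10.8 CPM with dBRD9-A (log2 fold change -2.35 with SE 0.07 and adjusted p = 1.66e-13). PSG1 (ENSG00000231924.5) had 16.9, 17.9 and 20.03 CPM in DMSO and 1.80, 2.05 and 2.09 CPM with dBRD9-A, so that each treated library lay far below each control. PSG4 stood apart from its family. It took the most counts after PSG9, with 70.4, 69.9 and 76.5 CPM in DMSO, and kept 46.6, 47.1 and 43.4 CPM with dBRD9-A (log2 fold change -0.66 with SE 0.04 and adjusted p = 1.10e-08), while the other 9 had log2 fold changes of -2.25 to -3.21. The 10 genes summed to 289, 287 and 304 CPM in DMSO and to 88.1, 88.8 and 87.3 CPM with dBRD9-A, a sum that does not depend on how reads were shared among these near-identical copies. Other placental genes went both ways: of 12 tested outside the family, 2 were higher and 3 lower (3 higher and 0 lower with spike-in scaling). GATA2, a transcription factor of trophoblast and blood cells, was 1 of the 2 higher ones and rose by 0.34. PLAC8, 1 of the 3 lower ones, had a log2 fold change of -0.35, which became 0.013 with spike-in scaling.

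FMO1 (ENSG00000010932.11), a flavin-containing monooxygenase that oxidises drugs and other foreign compounds, had the largest fall among single genes outside the PSGs under the rule for leading genes. It had 136, 136 and 141 CPM in DMSO and 21.3, 22.0 and 22.0 CPM with dBRD9-A, a 6.31-fold drop (log2 fold change -2.66 with SE 0.05 and adjusted p = 1.75e-15). Its neighbours on the chromosome did not follow: FMO2 had a log2 fold change of -0.03 that did not pass the test, and FMO4 rose by 0.21.

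GBX2 (ENSG00000168505.6), a homeobox transcription factor that sets the boundary between midbrain and hindbrain in the embryo, had the largest rise among called genes averaging 100 or more counts with separate groups. It had 16.7, 16.8 and 16.0 CPM in DMSO and 41.1, 39.7 and 41.6 CPM with dBRD9-A, a 2.47-fold rise (log2 fold change 1.31 with SE 0.05 and adjusted p = 6.35e-12). FGFR3, a receptor for fibroblast growth factors, had 9.07, 8.68 and 9.20 CPM in DMSO and 18.9, 17.6 and 20.5 CPM with dBRD9-A (log2 fold change 1.08 with SE 0.07 and adjusted p = 7.41e-09). The libraries of the treatments did not overlap for GBX2, FGFR3, FMO1 or PSG1, which the rule for leading genes required, nor for any other PSG tested.

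Promoters of 2 genes that fell and 2 that rose are shown, picked for how far they differ in CpG dinucleotides, the sites of DNA methylation. Each is the 250 bases before the start of the gene in RefSeq on GRCh38.p14, 5′ to 3′ on the strand of the gene, with CG in capitals. The windows were taken at chr19:43186537-43186786, minus strand for PSG5, chr1:171248244-171248493, plus strand for FMO1, chr2:236168387-236168636, minus strand for GBX2 and chr4:1793043-1793292, plus strand for FGFR3.
PSG5: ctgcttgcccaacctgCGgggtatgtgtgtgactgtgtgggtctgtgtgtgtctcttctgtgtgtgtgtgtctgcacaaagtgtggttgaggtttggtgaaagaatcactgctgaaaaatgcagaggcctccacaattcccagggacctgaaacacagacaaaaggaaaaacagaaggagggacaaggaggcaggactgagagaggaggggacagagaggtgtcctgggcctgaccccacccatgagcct
FMO1: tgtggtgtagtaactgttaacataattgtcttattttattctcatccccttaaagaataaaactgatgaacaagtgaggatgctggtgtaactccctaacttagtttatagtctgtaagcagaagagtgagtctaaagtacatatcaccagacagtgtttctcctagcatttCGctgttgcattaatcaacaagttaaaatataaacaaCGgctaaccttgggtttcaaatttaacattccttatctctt
GBX2: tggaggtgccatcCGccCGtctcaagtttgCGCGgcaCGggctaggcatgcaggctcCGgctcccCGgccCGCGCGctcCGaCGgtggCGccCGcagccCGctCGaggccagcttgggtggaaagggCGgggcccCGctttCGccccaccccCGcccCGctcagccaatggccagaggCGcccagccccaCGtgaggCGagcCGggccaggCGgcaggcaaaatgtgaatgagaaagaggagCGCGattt
FGFR3: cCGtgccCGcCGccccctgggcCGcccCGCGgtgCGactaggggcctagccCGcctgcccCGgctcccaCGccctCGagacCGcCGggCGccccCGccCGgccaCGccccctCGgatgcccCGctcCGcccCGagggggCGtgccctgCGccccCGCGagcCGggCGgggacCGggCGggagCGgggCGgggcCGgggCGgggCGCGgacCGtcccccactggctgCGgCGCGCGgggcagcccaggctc
PSG5 held 1 CG and FMO1 2 in this window, against 28 in GBX2 and 40 in FGFR3. Among leading genes with a promoter available, each PSG counted, the median was 4 CG in falls (0 to 29) and 24 in rises (3 to 40). Some did not divide this way: among falls HPD held 29 and AP3B2 22, and among rises DLGAP1-AS2 held 3 and CDKN2C 7. The 4 shown were picked after their values were seen. The table used held promoters for 14 of 21 falls, each PSG counted, and 8 of 12 rises, and the difference between these groups was not tested. Over all protein-coding genes called, for which 80.6% of the lower and 81.0% of the higher ones had a promoter in the table, the median was 21 CG in lower and 23 in higher genes. The share with 10 or fewer was 20.1% of lower, 12.2% of higher and 16.2% of all protein-coding genes tested. Among called protein-coding genes that changed by at least 0.5 on the log2 scale, the median was 11 CG in lower and 25 in higher genes. Of these, 49.7% of the lower and 21.3% of the higher genes held 10 or fewer. A promoter was available for 71.0% and 74.8% of them, and the differences were not tested. Neither methylation nor binding was measured.

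After the PSGs and FMO1, the leading falls covered unrelated functions. MAP1LC3C, an ATG8-family protein of autophagosomes, had 9.69, 9.36 and 9.08 CPM in DMSO and 1.94, 2.08 and 1.64 CPM with dBRD9-A (log2 fold change -2.31 with SE 0.08 and adjusted p = 2.79e-12). INPP5D, the lipid phosphatase SHIP1 known from blood cells, had 3.44, 3.37 and 3.85 CPM in DMSO and 0.912, 0.658 and 0.706 CPM with dBRD9-A (log2 fold change -2.22 with SE 0.16 and adjusted p = 3.43e-08). FILNC1, a long non-coding RNA, had 25.8, 28.0 and 29.9 CPM in DMSO and 7.81, 7.69 and 8.78 CPM with dBRD9-A (log2 fold change -1.79 with SE 0.08 and adjusted p = 2.97e-11). None of these genes kept more than 28.97% of its DMSO level. AP3B2, the neuronal form of a vesicle adaptor subunit, fell from 10.2 ± 0.772 to 3.05 ± 0.442 CPM (SD, n = 3), and TSPAN10, a tetraspanin, from 42.4 ± 1.31 to 15.4 ± 0.465 CPM. GDF5, a BMP-family ligand of joints and cartilage, fell from 5.42 ± 0.115 to 1.89 ± 0.563 CPM, with treated libraries at 1.80, 1.37 and 2.49 CPM. Enzymes and carriers of amino acid metabolism were among them: HPD, which breaks down tyrosine, fell from 16.8 ± 0.839 to 6.25 ± 0.347 CPM, and SLC25A18, a mitochondrial glutamate carrier, from 15.9 ± 0.4999 to 6.14 ± 0.186 CPM. TNNT2, cardiac troponin T, fell from 15.7 ± 0.708 to 6.14 ± 0.717 CPM, and its annotation overlaps LAD1 on the same strand, so its reads may be shared. MMRN2, a matrix glycoprotein of vessel walls, fell from 7.73 ± 0.822 to 2.62 ± 0.453 CPM (log2 fold change -1.56 with SE 0.11 and adjusted p = 3.53e-08). MMRN2 overlaps SNCG on the opposite strand, which fell too (log2 fold change -0.94 with SE 0.08 and adjusted p = 4.61e-07), and whether counting used strand is not given in the sources used here, so reads of the pair cannot be told apart.

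The other leading rises held the non-coding RNAs LINC01179, DLGAP1-AS2 and SNHG26 and several regulators of growth. LINC01179 had 4.23, 4.19 and 4.81 CPM in DMSO and 9.70, 9.77 and 9.91 CPM with dBRD9-A (log2 fold change 1.15 with SE 0.08 and adjusted p = 1.71e-08), while the protein-coding genes on either side had -0.10 (CPE) and -0.21 (TLL1), both lower. DLGAP1-AS2 had 3.02, 3.15 and 3.60 CPM in DMSO and 6.69, 7.53 and 7.88 CPM with dBRD9-A (log2 fold change 1.17 with SE 0.10 and adjusted p = 1.30e-07), and DLGAP1, which it overlaps on the opposite strand, was lower (-0.44). LINC01179 and DLGAP1-AS2 thus moved against the genes next to them. N6AMT1, a methyltransferase that modifies the translation release factor, rose from 12.4 ± 0.219 to 25.3 ± 1.58 CPM (SD, n = 3). CDKN2C, the p18 inhibitor of CDK4 and CDK6, had 37.6, 33.3 and 35.9 CPM in DMSO and 59.1, 59.2 and 64.96 CPM with dBRD9-A (log2 fold change 0.78 with SE 0.05 and adjusted p = 1.10e-08). DUSP6, the phosphatase that switches off ERK, had 128, 129 and 136 CPM in DMSO and 220.2, 226 and 225 CPM with dBRD9-A (log2 fold change 0.77 with SE 0.03 and adjusted p = 8.44e-11). Separate groups of libraries were required of both by the rule for leading genes. SAMD14, KBTBD11, SNHG26, BCAN and C2CD4C, at 1.49 to 12.4 CPM per DMSO library, completed the list with log2 fold changes of 0.75 to 0.96.

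**Figure D2:**
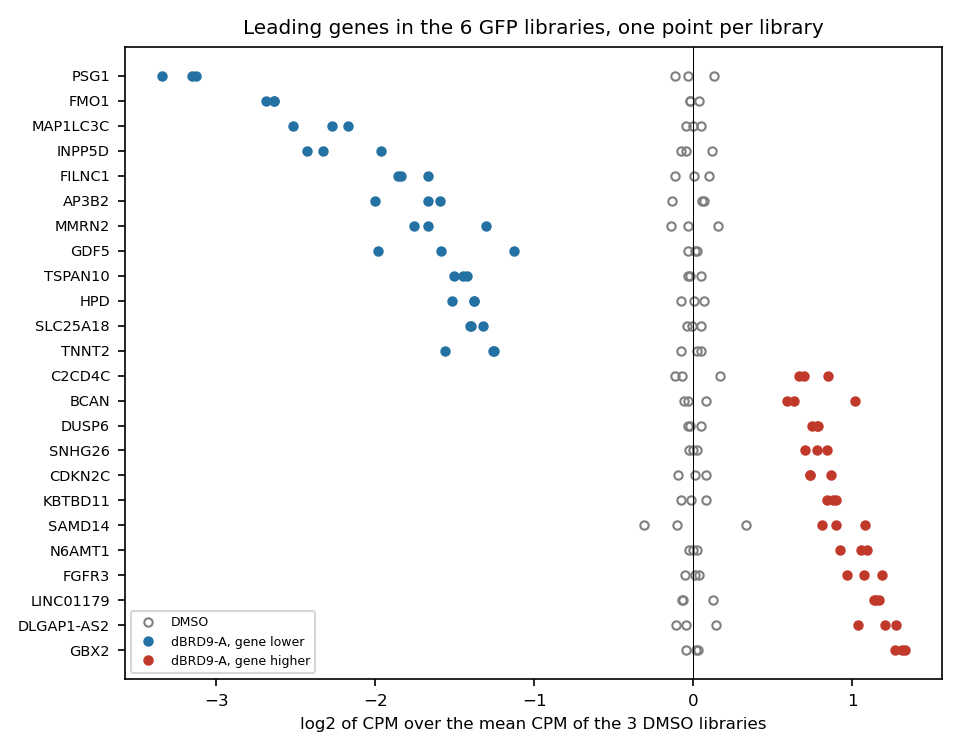
Log2 of the CPM in each GFP library over the mean CPM of the 3 DMSO libraries (horizontal axis) for the 24 leading genes (vertical axis), open circles for DMSO and filled circles for dBRD9-A. No treated library overlaps a control library for any of these genes, which the rule required, and on this log scale the treated libraries of GDF5 are the most spread among the falls.

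The largest changes in CPM were in genes that take many counts. The long non-coding RNA LINC03018 had 421, 402 and 442 CPM in DMSO and 197, 201 and 207 CPM with dBRD9-A (log2 fold change -1.07 with SE 0.04 and adjusted p = 5.09e-12). AHNAK, a giant scaffold protein, COL1A2 of type I collagen and SCD, which makes monounsaturated fatty acids, had log2 fold changes of -0.27, -0.42 and -0.23. The falls of ACTB (-0.07) and GAPDH (-0.08) passed the test but lost it when 8 and 5 of the 12 libraries were left out in turn (adjusted p up to 0.203 and 0.174), and with spike-in scaling they became rises of 0.29 and 0.28. ACTB kept its call only without GFP DMSO replicate 2, SMARCB1 DMSO replicate 1 or 2 or replicate 2 of SMARCB1 dBRD9-A, and GAPDH lost it without replicate 1 or 3 of either GFP group or SMARCB1 dBRD9-A replicate 3. AHNAK (0.087, adjusted p = 0.368), COL1A2 (-0.059, adjusted p = 0.431) and SCD (0.13, adjusted p = 0.0862) did not pass the test with spike-in scaling. AHNAK also lost its call without GFP DMSO replicate 1 or 2 or any one of the 3 dBRD9-A libraries (adjusted p up to 0.0914). Among rises, ACTG1, cytoplasmic gamma actin, went from 2852 ± 52.9 to 3243 ± 75.4 CPM (log2 fold change 0.19), against the beta actin fall. FERMT2, an activator of integrins, rose from 489 ± 3.78 to 642 ± 12.6 CPM (log2 fold change 0.39 with SE 0.02 and adjusted p = 6.12e-09), ID3 by 0.41, WLS, which carries Wnt proteins to the surface, by 0.25, LRATD2 by 0.20 and ZNF106 by 0.17.

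Gene lists by function were then read against the share of all genes called (15.9%). Extracellular matrix genes were called more often than the average gene, and more of those called were lower than higher. Of 36 matrix remodelling and matricellular genes tested, 13 were lower and 3 higher, with a median of -0.12 (15 higher and 5 lower with spike-in scaling). THBS1, thrombospondin 1, which activates latent TGF-beta, had 34.3, 38.7 and 38.6 CPM in DMSO and 18.1, 19.4 and 19.5 CPM with dBRD9-A (log2 fold change -0.97 with SE 0.06 and adjusted p = 8.36e-09). THBS3, the membrane protease MMP24 and the collagen cross-linker LOXL3 fell by 0.57, 0.49 and 0.47 on the log2 scale. VCAN, the large proteoglycan versican, went the other way, with 179, 179.8 and 169 CPM in DMSO and 257, 257 and 256 CPM with dBRD9-A (log2 fold change 0.55 with SE 0.06 and adjusted p = 2.57e-06). Of 22 collagen genes, 6 were lower and 2 higher (median -0.06, and 9 higher and 2 lower with spike-in scaling). Both chains of type I collagen fell, COL1A1 from 257 ± 8.94 to 178 ± 6.56 CPM (log2 fold change -0.53 with SE 0.04 and adjusted p = 1.39e-07) and COL1A2 from 842 to 630.1 CPM, and COL18A1, the source of endostatin, fell by 0.40. COL5A2, which joins type I fibrils, rose by 0.32.

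Targets of YAP and TEAD, the effectors of the Hippo pathway, split: 10 of 27 were lower and 3 higher, with a median of -0.02 and 19 higher and 0 lower under spike-in scaling. AXL, a receptor tyrosine kinase, had 28.0, 28.99 and 30.1 CPM in DMSO and 20.04, 20.8 and 21.2 CPM with dBRD9-A (log2 fold change -0.49 with SE 0.04 and adjusted p = 1.28e-07), and MYOF, a membrane repair protein, fell by 0.41. The 2 standard targets did not fall. CCN1 rose by 0.30, and CCN2, named after its value was seen, had a log2 fold change of 0.02 (adjusted p = 0.808).

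Genes of the TGF-beta and BMP pathways changed in both directions. The list had 12 higher and 6 lower genes of 38 tested, a median of 0.08, and 30 higher and 3 lower under spike-in scaling. Among ligands and matrix proteins, BMP6 had 9.06, 8.68 and 8.85 CPM in DMSO and 4.65, 5.45 and 4.97 CPM with dBRD9-A (log2 fold change -0.82 with SE 0.09 and adjusted p = 6.90e-06). LTBP2, a member of the latent TGF-beta binding protein family, had 112, 116 and 114 CPM in DMSO and 69.1, 61.2 and 68.9 CPM with dBRD9-A (log2 fold change -0.78 with SE 0.04 and adjusted p = 8.22e-10). The ID genes, inhibitors of basic helix-loop-helix factors and classical targets of BMP signalling, all 4 rose, by 0.40 (ID1) to 0.68 (ID2). ID2 had 65.2, 61.8 and 64.2 CPM in DMSO and 101, 104 and 102 CPM with dBRD9-A (log2 fold change 0.68 with SE 0.03 and adjusted p = 1.95e-10), and ID4 had 64.9, 64.8 and 65.7 CPM in DMSO and 96.9, 92.7 and 100.03 CPM with dBRD9-A (log2 fold change 0.57 with SE 0.03 and adjusted p = 2.48e-09). SKIL, a feedback repressor of SMAD proteins, rose by 0.43. The ID genes were picked as a family with their values known.

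Growth factor receptors were among the most often called lists, with 5 higher and 9 lower of 27 receptor tyrosine kinases and FGF ligands (median 0.06, and 14 higher and 1 lower with spike-in scaling). Of the 4 FGF receptors 2 rose and 2 fell. FGFR2 moved against FGFR3, and had 458, 449 and 449 CPM in DMSO and 338, 348 and 349 CPM with dBRD9-A (log2 fold change -0.39 with SE 0.03 and adjusted p = 1.25e-07). Within the TAM receptors AXL fell and TYRO3 rose, with 62.9, 61.9 and 62.6 CPM in DMSO and 85.9, 83.7 and 80.6 CPM with dBRD9-A (log2 fold change 0.42 with SE 0.03 and adjusted p = 8.87e-08). PDGFRB fell by 0.41 and the collagen receptor DDR1 rose by 0.38. Of 17 feedback genes of the ERK pathway, 5 were higher and 2 lower (median -0.01, and 14 higher and 0 lower with spike-in scaling). DUSP6 was far ahead of the next riser, ETV1 (0.31), a transcription factor, and DUSP1 had -0.35 (0.0056 with spike-in scaling). Of 10 Hedgehog genes only GLI1, the pathway's transcription factor and target, was called (list median 0.10, and 8 higher and 0 lower with spike-in scaling), with 7.58, 8.15 and 7.38 CPM in DMSO and 11.4, 12.9 and 12.03 CPM with dBRD9-A (log2 fold change 0.65 with SE 0.08 and adjusted p = 8.32e-06). Of 38 Wnt genes 4 were higher and 3 lower (median 0.05, and 27 higher and 0 lower with spike-in scaling), and the Wnt antagonists DKK1 and DKK3 moved apart, DKK1 from 201 ± 0.540 to 292 ± 5.96 CPM (log2 fold change 0.54 with SE 0.03 and adjusted p = 5.64e-10) and DKK3 from 22.7 ± 0.722 to 15.8 ± 1.06 CPM (log2 fold change -0.51 with SE 0.05 and adjusted p = 1.07e-06). The shares called, 10% of Hedgehog and 18.4% of Wnt genes, were below and near the 15.9% of all genes.

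**Figure D3:**
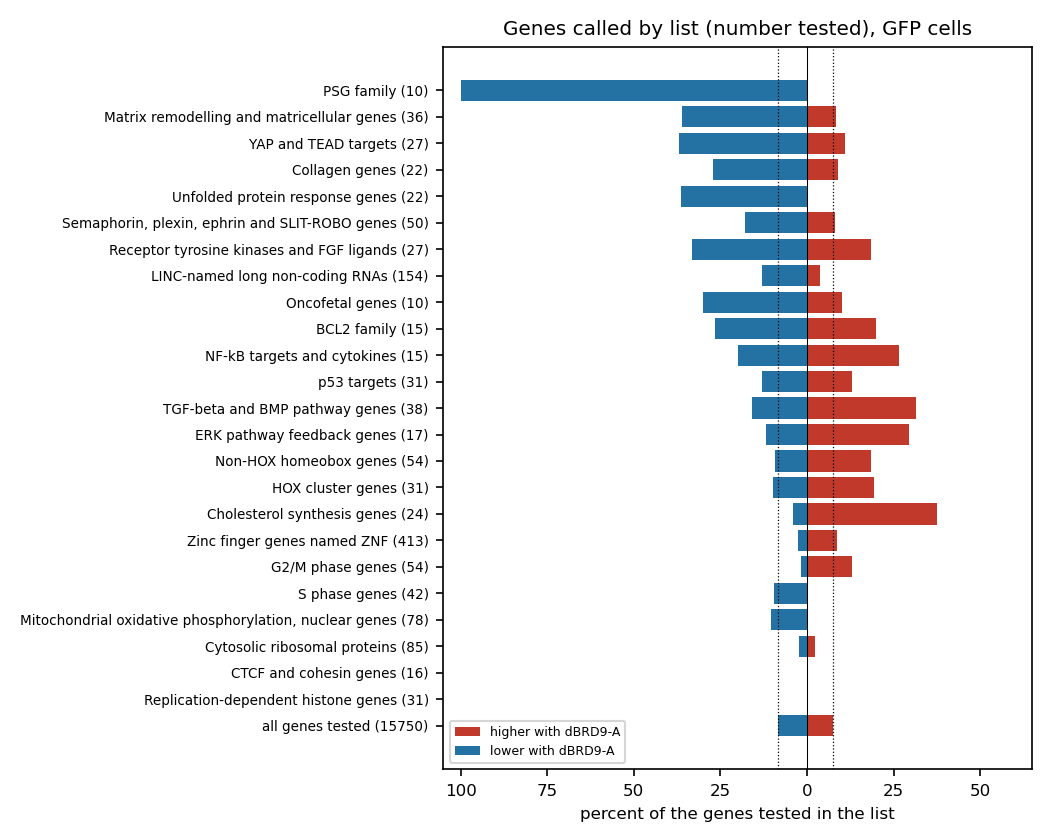
Percent of the tested genes of each list that were higher (red, to the right) or lower (blue, to the left) with dBRD9-A in GFP cells, with the number tested in brackets and dotted lines at the shares of all genes. The PSG family is lower throughout, matrix and YAP target lists lie mostly to the left, and cholesterol synthesis and homeobox lists mostly to the right.

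Homeobox genes rose more often than they fell. Outside the HOX clusters, 10 of 54 were higher and 5 lower (median 0.03, and 35 higher and 1 lower with spike-in scaling). Besides GBX2, all 4 DLX genes tested were higher, by 0.21 to 0.66. The DLX genes encode patterning factors of the forebrain, jaw and limb. DLX2 had 15.2, 13.8 and 15.0 CPM in DMSO and 23.4, 22.9 and 23.6 CPM with dBRD9-A (log2 fold change 0.66 with SE 0.06 and adjusted p = 4.98e-07), and its neighbour in the genome, DLX1, had 28.2, 28.2 and 27.4 CPM in DMSO and 37.4, 36.6 and 36.6 CPM with dBRD9-A (log2 fold change 0.40 with SE 0.04 and adjusted p = 3.48e-06). LHX6, a factor of interneurons, fell, with 7.99, 8.24 and 7.76 CPM in DMSO and 3.67, 3.82 and 3.98 CPM with dBRD9-A (log2 fold change -1.06 with SE 0.10 and adjusted p = 7.73e-07). Among HOX genes, 6 of 31 were higher and 3 lower (median 0.07, and 20 higher and 0 lower with spike-in scaling). The rises lay in the A and B clusters: HOXB6, HOXB7, HOXB8 and HOXB9, which stand side by side, had log2 fold changes of 0.31, 0.31, 0.38 and 0.30. HOXB7 overlaps both HOXB8 and HOXB9 in the annotation used, so reads may be shared between them. The 3 falls were spread, with 1 each in the A, B and C clusters. That of the C cluster, HOXC8, fell by 0.41. The call for HOXB8 was lost without any one of the 3 DMSO libraries or of dBRD9-A replicates 1 and 3 of GFP cells (adjusted p up to 0.187). The DLX and HOXB groups were singled out after their values were seen.

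Metabolic genes changed by list. Of 24 cholesterol synthesis genes 9 were higher and 1 lower, with a median of 0.08 (23 higher and 0 lower with spike-in scaling). HMGCS1, which makes HMG-CoA, and DHCR7, which makes cholesterol in the last step, had log2 fold changes of 0.27 and 0.27, and both rose in all 3 treated libraries above all 3 controls. SLC2A1, the main glucose transporter GLUT1, had 278, 275 and 289.8 CPM in DMSO and 133, 128 and 131 CPM with dBRD9-A (log2 fold change -1.10 with SE 0.03 and adjusted p = 2.58e-14), while SLC2A3, the high-affinity transporter GLUT3, rose by 0.24. Of the 21 genes of glycolysis in all, 1 was higher and 4 lower (median -0.04, and 19 higher and 1 lower with spike-in scaling). Of the hypoxia response genes, 5 of 18 were higher and 1 lower (median -0.02, and 15 higher and 1 lower with spike-in scaling). The lower one was DDIT4, an inhibitor of mTORC1, with 119, 119 and 129.8 CPM in DMSO and 74.3, 72.7 and 77.5 CPM with dBRD9-A (log2 fold change -0.71 with SE 0.04 and adjusted p = 9.66e-10).

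Some chaperones and folding enzymes of the endoplasmic reticulum were lower by small amounts. Of 22 unfolded protein response genes 8 were lower and 0 higher, with a median of -0.07, but spike-in scaling gave 22 higher and 0 lower. Calnexin (CANX) and HSP90B1 had log2 fold changes of -0.19 and -0.16, which became 0.16 and 0.20 with spike-in scaling. The integrated stress response gave 2 higher and 5 lower genes of 31 (median -0.04, and 26 higher and 1 lower with spike-in scaling), and its stress protein NUPR1 had 102, 101 and 114 CPM in DMSO and 66.5, 61.2 and 65.5 CPM with dBRD9-A (log2 fold change -0.72 with SE 0.05 and adjusted p = 1.10e-08).

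Genes of survival and growth arrest moved without a common direction. In the BCL2 family 4 of 15 were lower and 3 higher (median 0.06, and 11 higher and 0 lower with spike-in scaling). The falls held both the anti-apoptotic BCL2 and BCL2L1 (BCL-XL) and the pro-apoptotic BCL2L11 (BIM). BCL2 had 56.9, 56.5 and 57.0 CPM in DMSO and 40.5, 39.7 and 42.2 CPM with dBRD9-A (log2 fold change -0.48 with SE 0.04 and adjusted p = 2.38e-07), and BCL2L1 had 55.2, 53.6 and 55.7 CPM in DMSO and 42.7, 40.8 and 39.5 CPM with dBRD9-A (log2 fold change -0.42 with SE 0.03 and adjusted p = 1.36e-07). The pro-apoptotic BOK and BAX rose by 0.29 and 0.19. With spike-in scaling none of the 3 passed the test, with values of -0.12 for BCL2 (adjusted p = 0.173), -0.060 for BCL2L1 (adjusted p = 0.428) and -0.14 for BCL2L11 (adjusted p = 0.289). Of 31 p53 targets 4 were higher and 4 lower (median 0.01, and 27 higher and 1 lower with spike-in scaling). The growth arrest gene GADD45A had 19.7, 17.3 and 18.8 CPM in DMSO and 12.3, 11.98 and 12.1 CPM with dBRD9-A (log2 fold change -0.62 with SE 0.06 and adjusted p = 1.53e-06), PLK2 had -0.62 (-0.27 with spike-in scaling, adjusted p = 0.0563) and PHLDA3, an inhibitor of AKT, rose by 0.46. CDKN1A, the standard p53 target p21, named after its value was seen, had -0.10 (adjusted p = 0.134).

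Cell cycle genes changed little. Of 42 S phase genes 4 were lower and 0 higher, and of 54 G2/M genes 7 were higher and 1 lower. The shares called, 9.52% and 14.8%, were below the 15.9% of all genes. All 42 and all 54 were higher with spike-in scaling. NCAPD2, a condensin subunit, had 0.18, and TMPO, a nuclear lamina protein, -0.12. CDKN2C was 1 of 2 higher genes among 18 CDK inhibitors and G1 cyclins, with 1 lower (median -0.03, and 16 higher and 0 lower with spike-in scaling). MYC had 190.2, 188 and 190.4 CPM in DMSO and 172, 173 and 165 CPM with dBRD9-A (log2 fold change -0.16 with SE 0.03 and adjusted p = 0.00407), a fall that became a rise of 0.20 with spike-in scaling. Ribosomal protein genes were called in 4.71% and mitochondrial ribosomal protein genes in 6.67% of those tested, below the 15.9% of all genes, and 83 of 85 and 73 of 75 were higher with spike-in scaling. No call was made among 31 histone genes, 16 CTCF and cohesin genes or 13 mitochondrial mRNAs, against 29, 15 and 8 higher ones with spike-in scaling. The 78 nuclear genes of oxidative phosphorylation gave 8 lower and 0 higher ones, the lowest called one at -0.18, and all 78 were higher with spike-in scaling. Of these genes 10.3% were called, and of the CDK inhibitors and G1 cyclins 16.7%, below and near the 15.9% of all genes.

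**Figure D4:**
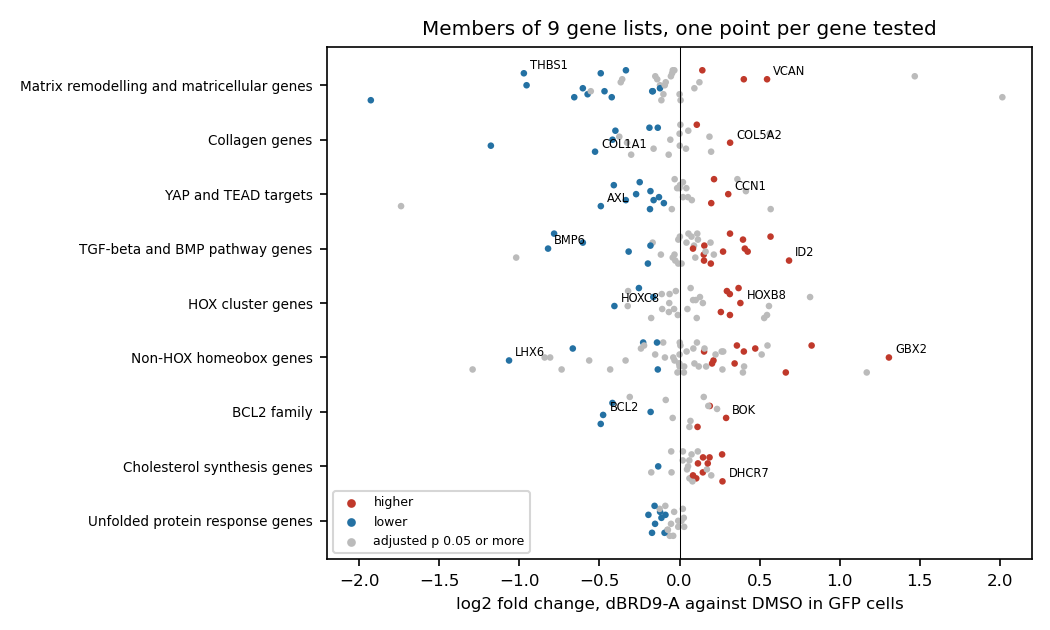
Log2 fold change between dBRD9-A and DMSO in GFP cells (horizontal axis) of each tested member of 9 lists (vertical axis), red where higher, blue where lower and grey where the adjusted p was 0.05 or more. THBS1 and VCAN mark the opposite ends of the well-counted matrix genes, ID2 leads the TGF-beta and BMP list, and the unfolded protein response genes lie close together just below 0.

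NF-kB targets and cytokines split, with 4 higher and 3 lower of 15 (median 0.09, and 10 higher and 3 lower with spike-in scaling). TNFAIP2 had 34.5, 33.9 and 37.0 CPM in DMSO and 18.2, 17.1 and 16.7 CPM with dBRD9-A (log2 fold change -1.02 with SE 0.05 and adjusted p = 1.54e-10), and CSF1, the growth factor of macrophages, had 73.6, 78.0 and 73.6 CPM in DMSO and 54.8, 50.1 and 51.3 CPM with dBRD9-A (log2 fold change -0.53 with SE 0.05 and adjusted p = 6.75e-07). The pathway's own subunits RELB and NFKB2 rose by 0.64 and 0.34. Interferon-stimulated genes were called in 3 higher and 2 lower cases of 28 (median -0.03, and 18 higher and 0 lower with spike-in scaling), led by RIGI, a sensor of viral RNA, with 30.9, 30.9 and 32.9 CPM in DMSO and 44.4, 44.2 and 45.8 CPM with dBRD9-A (log2 fold change 0.50 with SE 0.04 and adjusted p = 5.54e-08). The share of interferon-stimulated genes called, 17.9%, was near the 15.9% of all genes. Of 16 genes of MHC class I presentation, 3 were higher and 1 lower (median 0.07, and 12 higher and 0 lower with spike-in scaling). The peptide loading factors TAPBP and TAP1 rose by 0.31 and 0.20. Immediate early genes moved both ways, 4 higher and 5 lower of 21 (median 0.08, and 13 higher and 0 lower with spike-in scaling), and FOSL2, a subunit of AP-1, fell by 0.42.

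Several genes of embryonic or lineage programmes fell, though the oncofetal, axon guidance and muscle lists also held rises, which are not named here. Both LIN28 genes, RNA-binding proteins that block let-7 microRNAs in early embryos, were lower. LIN28A had 379, 376 and 359 CPM in DMSO and 244, 240.1 and 235 CPM with dBRD9-A (log2 fold change -0.63 with SE 0.03 and adjusted p = 1.90e-10), and LIN28B had 9.68, 7.95 and 9.39 CPM in DMSO and 6.15, 6.4 and 6.27 CPM with dBRD9-A (log2 fold change -0.53 with SE 0.09 and adjusted p = 0.000378). HMGA2, a chromatin protein of embryonic cells and a let-7 target, had 508, 537 and 502 CPM in DMSO and 394, 371 and 404 CPM with dBRD9-A (log2 fold change -0.40 with SE 0.04 and adjusted p = 9.34e-07). The 10 oncofetal genes tested gave 3 lower and 1 higher (median -0.06, and 7 higher and 1 lower with spike-in scaling). Axon guidance genes gave 9 lower and 4 higher of 50 (median -0.02, and 26 higher and 2 lower with spike-in scaling), with the semaphorins SEMA3B, SEMA4G and SEMA7A at -0.59, -0.53 and -0.50. Synaptic and neuronal genes were called in 13.2%, under the 15.9% of all genes. Of 38 synaptic and neuronal genes 5 were lower and 0 higher (median -0.01, and 15 higher and 2 lower with spike-in scaling), led by L1CAM, a neural adhesion molecule, with 35.5, 37.2 and 36.5 CPM in DMSO and 21.3, 20.8 and 21.7 CPM with dBRD9-A (log2 fold change -0.78 with SE 0.05 and adjusted p = 9.48e-09). Muscle contractile genes gave 3 higher and 4 lower of 44, near the share of all genes (median -0.02, and 27 higher and 3 lower with spike-in scaling). Beside TNNT2, the smooth muscle gene TAGLN had 105, 107 and 117 CPM in DMSO and 63.7, 66.7 and 69.2 CPM with dBRD9-A (log2 fold change -0.72 with SE 0.04 and adjusted p = 8.22e-10).

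The gene list for the targeted complex also held paralogues of its subunits, such as SMARCD3, and subunits shared with other forms, such as SMARCC1. Of its 16 genes tested, 3 were higher and 2 lower (median -0.01, and 14 higher and 0 lower with spike-in scaling). BICRAL had 5.91, 6.30 and 6.07 CPM in DMSO and 9.10, 9.59 and 10.5 CPM with dBRD9-A, all treated libraries above all controls. BCL7B, SMARCD3 and SMARCC1 had 0.28, 0.19 and -0.12, the last turning to 0.24 with spike-in scaling. SMARCC1 lost its call without replicate 1 or 2 of either GFP group (adjusted p up to 0.0942). Signature subunits of canonical BAF and PBAF gave 1 lower gene of 11 (median -0.01, and 11 higher and 0 lower with spike-in scaling). Polycomb genes gave 2 higher and 3 lower of 30 (median 0.03, and 25 higher and 0 lower with spike-in scaling). The shares called in these last 2 lists, 9.09% and 16.7%, were below and near the 15.9% of all genes.

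The classes of transcript differed in direction. Long non-coding RNAs named LINC gave 20 lower and 6 higher of 154 (median -0.13, and 36 higher and 14 lower with spike-in scaling). Protein-coding genes named ZNF, most of them zinc finger repressors, gave 36 higher and 11 lower of 413 (median 0.02, and 352 higher and 0 lower with spike-in scaling). In all, 16.9% of the LINC and 11.4% of the ZNF genes were called, near and below the 15.9% of all genes. Over all genes 7.43% were higher and 8.47% lower, and the differences in direction were not tested. Chromosome 19, where many of the latter lie, had 11.6% of its tested genes higher and 3.82% lower, although it also holds the PSG cluster. GC content moved with these results. The median log2 fold change was -0.014 in the tenth of genes with the lowest GC content of their longest transcript and 0.055 in the tenth with the highest. Centring the values within 10 bins of GC content, an alternative added after the data were seen, gave 2632 called genes, 1266 higher and 1366 lower, with 41 higher and 8 lower ZNF genes and 20 lower and 6 higher LINC genes.

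The protein-coding genes next to the leading genes were examined to see whether whole stretches of a chromosome moved, a check chosen after the values were seen. Of 24 neighbours of the leading falls, 4 were lower, 2 higher and 18 not called. Of 24 neighbours of the leading rises, 7 were higher, 4 lower and 13 not called. Over all genes the shares were 7.43% higher and 8.47% lower, and the excess of higher neighbours was not tested. Beside GBX2, AGAP1 (-0.0033) and COPS8 (-0.04) were not called. Beside the PSG cluster, CEACAM1 was not called (0.65, SE 0.54) and CD177 was higher (0.28).

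The same genes were then read in G401 cells with SMARCB1 restored, whose libraries are separate from those above. There dBRD9-A changed 304 of the 15750 genes (1.93%), a count that ranged from 169 (without SMARCB1 DMSO replicate 3) to 422 (without SMARCB1 dBRD9-A replicate 2) with 1 library left out, was 174 without SMARCB1 DMSO replicate 2 and 196 without replicate 3 of SMARCB1 dBRD9-A, and became 873 with spike-in scaling. It stands against 2504 in GFP cells, and the response differed between the cell states in 598 (3.8%). Of the 12 leading falls, all had the same sign in SMARCB1 cells, 9 passed the test there, and the median log2 fold change was -0.50 against -1.65. Of the 12 leading rises 10 had the same sign and 4 passed, with medians of 0.19 and 0.92. The difference between the responses, tested as an interaction, passed for all 12 falls and for 8 of the 12 rises, though genes chosen for a large change in GFP cells tend to show a smaller one elsewhere. FILNC1 had the response closest to that in GFP cells among the falls (-1.79 in GFP cells, -1.26 in SMARCB1 cells). SNHG26 (0.77 and 0.56) and SAMD14 (0.96 and 0.73) came closest among the rises, and their interactions did not pass. GBX2 was at 20.6, 20.4 and 21.5 CPM in SMARCB1 cells in DMSO and its response there did not pass (log2 fold change 0.03 with SE 0.05 and adjusted p = 0.895). List members named above differed too: for THBS1 the log2 fold change was 0.01 in SMARCB1 cells (interaction 0.98 with SE 0.09 and adjusted p = 2.46e-06), for SLC2A1 -0.21 (interaction 0.89 with SE 0.04 and adjusted p = 5.04e-10), for TAGLN -0.03 (interaction 0.70 with SE 0.05 and adjusted p = 5.16e-07) and for ID2 0.14 (interaction -0.54 with SE 0.05 and adjusted p = 3.08e-06). For others the difference did not pass the test: COL1A1 fell by 0.47 in SMARCB1 cells (interaction 0.05 with SE 0.06 and adjusted p = 0.744) and RELB rose by 0.53 (interaction -0.10 with SE 0.14 and adjusted p = 0.782). Mean levels in DMSO also differed between SMARCB1 and GFP cells, in both directions. They were lower in SMARCB1 cells for TSPAN10 (9.31 against 42.4 CPM) and SLC2A1 (88.6 against 281 CPM). MAP1LC3C (22.9 against 9.38 CPM) and HPD (30.6 against 16.8 CPM) were higher there. Whether these levels bear on the responses was not tested.

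**Figure D5:**
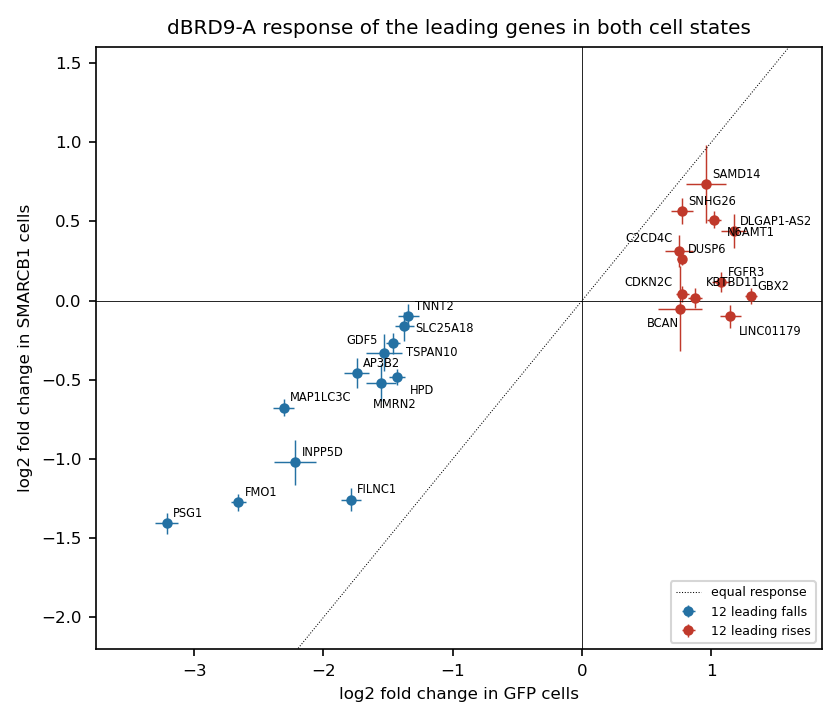
Log2 fold change with dBRD9-A in SMARCB1 cells (vertical axis) against that in GFP cells (horizontal axis) for the 24 leading genes, with bars of 1 standard error and a dotted line of equal response. All 24 points lie on the side of the line nearer to 0 for SMARCB1 cells, and GBX2, CDKN2C and KBTBD11 lie at about 0 there.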

How the data were processed

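RNA of 12 G401 libraries was sequenced from a stranded mRNA preparation, per the labels' protocols. The deposited values are expected counts per gene, estimated by the authors with STAR and RSEM 1.3.1 on GRCh37 (hg19), per the submitters' processing notes, which also name DESeq2. The annotation release, the use of strand in the counting and the addition of the spike-ins are not given in the sources used here. Expected counts were rounded to whole numbers and spike-ins left out of library sizes. Genes passing filterByExpr of edgeR 4.0.16 in R 4.3.3 (minimum count 10) were fitted in 1 quasi-likelihood model of all 12 libraries with TMM scaling, and p-values were adjusted by Benjamini-Hochberg over 15750 genes. SE is the standard error of a log2 fold change. The test was checked on simulated counts. Alternatives were the 6 GFP libraries alone, a replicate block, RLE factors, spike-in scaling, DESeq2 1.42.0, other filters, each library left out, and GC bins. Some results are not reported here.

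Leading genes were the 12 largest rises and falls at an adjusted p under 0.05, averaging 100 or more counts in GFP libraries and with separate groups, with the PSG family in 1 place. The 6 largest rises and falls in CPM and up to 6 called members of a list were also named. CCN2, CDKN1A, SNCG, PSG4, PSG5, PSG9, ID1, the HOXB, DLX, ID and LIN28 families, chromosomal neighbours and the promoters shown were chosen after their values were seen. Members and lists were chosen with earlier results of these data known. Depth was 34.97 to 58.5 megacounts in GFP libraries, and the floor of 3 counts covers counting error only.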

Additional observations from a re-analysis of the deposited data

Results flagged for a closer look

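For 20 of the 24 leading genes the response in SMARCB1 cells differed from that in GFP cells in the interaction test of edgeR (adjusted p under 0.05 over 15750 genes). The genes were picked for a large response in GFP cells, which by itself makes a smaller response elsewhere more likely, and the share of all genes past this test was 3.8%. Values are the log2 response in SMARCB1 cells minus that in GFP cells. They were positive, for weaker falls, at 1.80 for PSG1, 1.63 for MAP1LC3C, 1.38 for FMO1, 1.29 for AP3B2, 1.24 for TNNT2 and 1.21 for SLC25A18. They were 1.20 for GDF5, 1.20 for INPP5D, 1.19 for TSPAN10, 1.04 for MMRN2, 0.95 for HPD and 0.53 for FILNC1. They were negative, for weaker rises, at -1.28 for GBX2, -1.25 for LINC01179, -0.96 for FGFR3 and -0.86 for KBTBD11. They were -0.73 for CDKN2C, -0.73 for DLGAP1-AS2, -0.51 for N6AMT1 and -0.51 for DUSP6.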

How the results depend on the processing

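The 2504 genes changed by dBRD9-A in GFP cells became 11310 with spike-in scaling (11083 higher, 227 lower) and 143 where a change of 1 or more on the log2 scale was asked for (27 higher, 116 lower). They ranged from 1778 to 2804 with 1 library left out (811 to 1362 higher, 913 to 1442 lower). The 304 genes changed by dBRD9-A in SMARCB1 cells became 652 with no count filter and 873 with spike-in scaling, and ranged from 169 to 422 with 1 library left out. They fell to 174 and 169 without SMARCB1 DMSO replicate 2 or 3 and to 196 without SMARCB1 dBRD9-A replicate 3. Spike-in scaling turned these named genes: ACTB 0.29, GAPDH 0.28, CDKN1A 0.27, SMARCC1 0.24, TMPO 0.24, HSP90B1 0.20, MYC 0.20, CANX 0.16, SCD 0.13, AHNAK 0.087, PLAC8 0.013 and DUSP1 0.0056. The cause was not tested. It also ended the call, with the sign kept, of 20 named falls: COL1A2, COL18A1, MMP24, LOXL3, AXL, MYOF, PDGFRB, FGFR2, HOXC8, BCL2, BCL2L1, BCL2L11, PLK2, LIN28B, HMGA2, SEMA4G, SEMA7A, DKK3, MBP and FOSL2. With DESeq2, 2245 genes were called in GFP cells, and AHNAK (adjusted p = 0.0804) and HOXB8 (adjusted p = 0.0511) were lost among named genes. Depth limits what was called among genes with few counts, where a miss does not show that a gene did not change.

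The replicate numbers were not shown to pair the libraries: same-numbered libraries of different groups had correlated deviations of -0.056 to 0.061, with 0 of 18 pairs over 0.1. With the replicate number as a block, 2233 genes changed (1035 higher, 1198 lower), and ACTB, GAPDH and HOXB8 were lost among named genes.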

Other observations

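PEDS1-UBE2V1, an annotated readthrough gene that joins PEDS1 and UBE2V1, was picked with its counts known. It had 0 counts in all 6 DMSO libraries, 11, 11 and 20 counts in the GFP dBRD9-A libraries (adjusted p = 0.00913, edgeR) and 20, 0 and 10 counts in the SMARCB1 dBRD9-A libraries (adjusted p = 0.127, edgeR). PEDS1 and UBE2V1 had log2 fold changes of 0.23 and 0.06 in GFP cells, of which that of PEDS1 passed the test. The 3 genes overlap on the same strand, so these counts rest on how RSEM divided shared reads.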
